A study of Mus musculus with 6 samples.

Results

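Of 55536 genes in the expression table, 7 that encode steroid hormone metabolizing enzymes of the liver were examined. They were chosen by name, with earlier results of these data known, and all 7 of these symbols were found. These were the hydroxysteroid dehydrogenase genes Hsd3b2, Hsd3b3, Hsd3b5, Hsd11b1, Hsd17b2 and Hsd17b6, and the reductase gene Srd5a1. RNA-seq was made from livers of C57BL/6 mice, 8 to 10 weeks of age, with 1 library per sample. The labelled VMP1 KO group (n = 3) carried floxed VMP1 alleles and received AAV8-TBG-cre, and the control group (n = 3) carried the same floxed alleles and received AAV8-TBG-null. Both groups therefore had floxed alleles and an intravenous AAV8 virus for 2 weeks, and differed in whether that virus encoded Cre recombinase. TBG is a promoter active in hepatocytes, so by design the other cells of the liver should keep an intact gene, which was not checked here. Whole-liver RNA mixes hepatocytes and these other cells. The labels do not state whether 1 animal gave 1 library. Each p-value therefore reflects library-to-library spread, which may be technical.

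The liver inactivates, reactivates and clears steroid hormones that the adrenal gland and the gonads release. Enzymes of the HSD3B family act at the third carbon of the steroid nucleus, either oxidizing precursors or reducing hormones for clearance. HSD11B1 turns inactive glucocorticoid back into the active hormone, HSD17B enzymes switch sex steroids between active and less active forms, and steroid alpha-reductase saturates the first ring. Several such genes differ between male and female mouse liver, a difference known to depend on the pattern of growth hormone release.

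Vmp1, the targeted gene, was at 157, 136 and 137 TPM in the labelled VMP1 KO libraries and at 70.7, 96.5 and 88.6 TPM in the controls. TPM is a length-corrected abundance scaled to the same total in every library. The gene-level value was thus higher under the label KO, so each direction below rests on the labels. Reads from exons that Cre leaves in place would still be counted, and the value does not check the deletion. TPM keeps no read number, so depth and counting error are unknown. Fold changes are differences of log2(TPM + 1) ± SE, labelled KO minus control, with Benjamini-Hochberg adjusted p over 12796 tested genes from limma. Adding 1 before taking logs makes the change of low genes look smaller than it is. As deposited, the median log2 fold change over all tested genes was 0.77. Centring the libraries on their middle genes by median-of-ratios size factors moved log2 fold changes by a median of -0.83. For Vmp1 the log2 fold change was 0.75 ± 0.13 (adjusted p = 3.8e-04) and, after centring, -0.18 (adjusted p = 0.2, not called). Changes are given as deposited and, where it matters, after centring.

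Of the 7 enzyme genes 6 fell in the labelled VMP1 KO livers and 0 rose. The count was 6 lower, 0 higher and 1 not called, all 7 having passed the filter of at least 1 TPM in at least 3 libraries. Over all tested genes 10.7% were called lower and 74.5% higher as deposited, and 36.6% lower and 35.1% higher after centring. The same 6 genes were lower after centring. Because the 7 genes were chosen with earlier results of these data known, their count beside these shares is only a description. The median log2 fold change of all 7 was -2.21, and -3.08 after centring. The KO and control libraries did not overlap for 6 of the 7 genes, each with the KO lower. Separation was common over all tested genes, at 11.3% with the KO lower and 75.5% with the KO higher. The summed level of the 7 was 290.8 to 398.9 TPM in the labelled KO libraries and 885.7 to 964.3 TPM in the controls. In whole-liver RNA, fewer hepatocytes and less RNA per hepatocyte cannot be told apart. In the same libraries 9 of 12 hepatocyte markers were lower, with a summed level of 37195 to 38445 TPM in the labelled KO against 64272 to 85502 TPM in the controls. All 15 macrophage markers were higher, summing to 1648 to 2147 TPM in the labelled KO against 157 to 268 TPM in the controls. All 11 endothelial and 12 stellate cell markers were higher too. After centring 8 of the 11 endothelial, all 12 stellate and all 15 macrophage markers were higher, and all 12 hepatocyte markers were lower. The part of cell makeup in the results below was not tested.

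**Figure D1:**
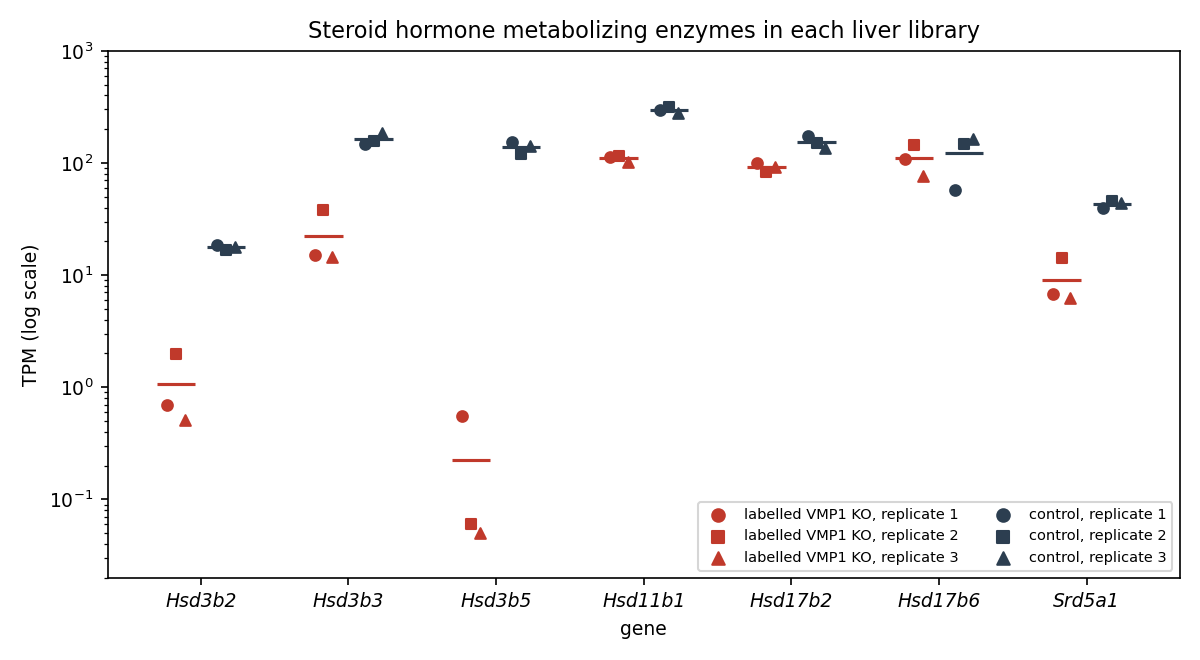
TPM (log axis) of the 7 enzyme genes in each library, labelled VMP1 KO in red to the left of control in dark blue, with marker shape for the replicate and a bar for the group mean. The groups are apart for 6 genes and overlap for Hsd17b6, and Hsd3b5 lies under 1 TPM in the 3 labelled KO libraries.

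Hsd3b2, Hsd3b3 and Hsd3b5 sit side by side in 1 gene cluster on chromosome 3, all on the minus strand of GRCm38 (the assembly also called mm10). Their promoters, 250 bases before to 50 bases after the start that RefSeq annotates on GRCm38.p6, are shown because the 3 genes are neighbours and all fell. Each is written 5′ to 3′ on the minus strand, and capitals mark a match to CAAAGTCCA, a site type of the liver factor HNF4A, read on either strand.
Hsd3b5, chr3:98645485-98645784: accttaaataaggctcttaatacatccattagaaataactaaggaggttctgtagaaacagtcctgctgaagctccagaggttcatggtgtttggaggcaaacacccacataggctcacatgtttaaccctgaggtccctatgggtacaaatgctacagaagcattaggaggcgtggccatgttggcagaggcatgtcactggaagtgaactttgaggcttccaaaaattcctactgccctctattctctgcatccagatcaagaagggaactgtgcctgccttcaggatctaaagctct
Hsd3b3, chr3:98763079-98763378: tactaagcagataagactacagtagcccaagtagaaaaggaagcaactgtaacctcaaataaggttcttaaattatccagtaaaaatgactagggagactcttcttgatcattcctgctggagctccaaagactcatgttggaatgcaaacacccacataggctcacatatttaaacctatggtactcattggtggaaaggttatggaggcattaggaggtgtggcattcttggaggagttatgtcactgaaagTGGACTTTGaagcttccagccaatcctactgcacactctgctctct
Hsd3b2, chr3:98724494-98724793: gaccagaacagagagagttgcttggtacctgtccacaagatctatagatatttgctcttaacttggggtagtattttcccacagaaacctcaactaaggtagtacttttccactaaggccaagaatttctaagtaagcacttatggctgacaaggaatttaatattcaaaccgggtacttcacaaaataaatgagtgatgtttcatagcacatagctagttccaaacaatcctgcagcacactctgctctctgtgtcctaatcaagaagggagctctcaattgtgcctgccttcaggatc

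The Hsd3b5 and Hsd3b3 promoters matched at 75.5% of 249 aligned bases, the Hsd3b5 and Hsd3b2 promoters at 69.6% of 250, and the Hsd3b2 and Hsd3b3 promoters at 60.2% of 246. RefSeq gives Hsd3b3 a further start, whose promoter (chr3:98762361-98762660) was identical at 99.3% of 299 aligned bases. The CAAAGTCCA letters occurred in both Hsd3b3 promoters and in 0.475% of the 32851 mouse promoters in the RefSeq table. In both Hsd3b3 promoters the match lay just after the annotated start and not before it. Of the 7 genes, 6 had a promoter in that table, which leaves out Hsd17b2. No promoter of these 6 held TTCNNNGAA (STAT5 and BCL6), found in 8.3% of all promoters on either strand. The same was true of ATCGAT (HNF6 and CUX2), found in 0.925%, and of the full palindromic site of the glucocorticoid receptor, found in 0.00913%. None of the motifs searched contains another. A match describes letters and not binding, and an absent match concerns only these 300 bases. For Hsd3b5 the RefSeq start lies upstream of the start in GENCODE M21, whose gene ends at base 98630252.

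Hsd3b5 showed the largest fall of the 7 genes. Its product, found in adult male mouse liver, works mainly as a reductase of keto steroids and uses NADPH. Hsd3b5 (ENSMUSG00000038092, chr3:98618634-98630252) was at 0.56, 0.06 and 0.05 TPM in the labelled VMP1 KO libraries and at 154, 120.7 and 143 TPM in the controls. All 3 labelled KO libraries were near the bottom of the scale, and the highest of them was replicate 1. The log2 fold change of Hsd3b5 was -6.86 ± 0.17 with adjusted p = 8.8e-09, and -7.40 after centring. On the linear scale the mean fell to 0.223 ± 0.292 TPM in the labelled KO, against 139 ± 16.8 TPM in the controls (SD, n = 3 each), which leaves 0.161% of the control mean. That share rests on labelled KO replicate 1, without which it was 0.0395%. Of 12796 tested genes, 10 had a lower log2 fold change than Hsd3b5.

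Hsd3b2 and Hsd3b3 encode dehydrogenase and isomerase enzymes of liver and kidney that convert delta-five precursors with NAD. Hsd3b3 (ENSMUSG00000062410, chr3:98741523-98763127) was at 15.1, 37.7 and 14.6 TPM in the labelled VMP1 KO libraries and at 147, 158 and 184 TPM in the controls. Its KO level averaged 13.8% of the control mean (9.11% without labelled KO replicate 2), a log2 fold change of -2.94 ± 0.38 (adjusted p = 5.4e-04; -3.85 after centring). Labelled KO replicate 2 was the highest of its group. Hsd3b2 (ENSMUSG00000063730, chr3:98709255-98724543) was at 0.7, 1.99 and 0.51 TPM in the labelled KO libraries and at 18.7, 16.8 and 17.9 TPM in the controls. It was the least abundant of the 7 genes in control livers, and labelled KO replicate 2 was again the highest of its group. Its log2 fold change was -3.25 ± 0.24 with adjusted p = 7.0e-06 (-3.90 after centring).

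The make-up of the 3 Hsd3b transcripts differed between the groups, a measure that a size factor per library cannot alter. Hsd3b5 made up 3.42%, 0.151% and 0.331% of their summed TPM in the labelled VMP1 KO libraries, and 48.1%, 40.8% and 41.5% in the controls. Hsd3b3 made up 92.3%, 94.8% and 96.3% in the labelled KO libraries, and 46.0%, 53.5% and 53.3% in the controls. The control livers thus held Hsd3b3 and Hsd3b5 at similar levels, and the labelled KO livers held mostly Hsd3b3. The ratio of Hsd3b5 to Hsd3b3 in a library was 0.00159 to 0.0370 in the labelled KO and 0.763 to 1.05 in the controls. The ratio of Hsd3b2 to Hsd3b3 was 0.0351 to 0.0528 in the labelled KO and 0.0974 to 0.127 in the controls. Both ratios were lower in 3 of 3 labelled KO libraries. They are 2 of 7 such ratios, chosen after the values were seen. Two-sided exact permutation p was 0.1 for each, the smallest that 3 libraries against 3 can give, and 0.117 after adjustment over the 7.

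**Figure D2:**
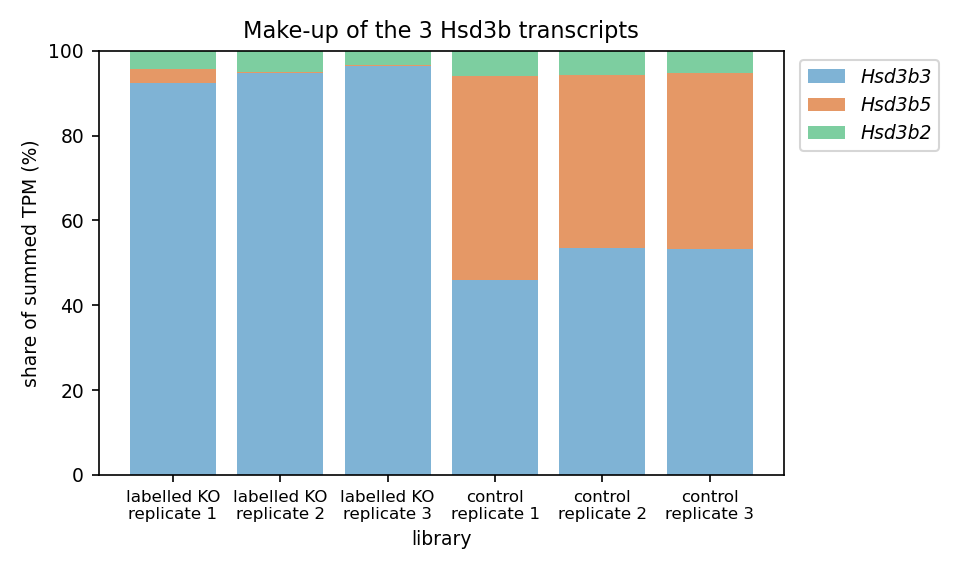
Share (%) of Hsd3b3, Hsd3b5 and Hsd3b2 in their summed TPM, 1 bar per library, labelled VMP1 KO on the left. Hsd3b5 holds 40.8% to 48.1% in the controls and at most 3.42% in the labelled KO libraries.

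Similarity within the family limits how firmly reads can be assigned to 1 member. The coding sequences in GENCODE M21, 1119 bases long in each case, were identical at 95.1% of positions between Hsd3b2 and Hsd3b3. They were identical at 81.3% of 1115 aligned positions between Hsd3b2 and Hsd3b5 and at 81.0% of 1113 between Hsd3b3 and Hsd3b5. Among the Hsd3b genes compared, the one nearest to Hsd3b5 was Hsd3b4, a kidney form, with 95.2% identity. The cluster genes Gm10681 and Gm4450 were not aligned. Of the 50-base words in Hsd3b5 transcripts 21.2% also occurred in transcripts of other genes, against 26.9% for Hsd3b2 and 8.73% for Hsd3b3, and with 100-base words these shares were 7.79%, 8.28% and 4.67%. The genes sharing most such 50-base words with Hsd3b5 were Hsd3b4 and Gm10681, at 18.2% each, and Gm4450, at 13.7%. RSEM divides ambiguous reads by estimation, and the single values of Hsd3b2, Hsd3b3 and Hsd3b5 are uncertain to an extent that was not measured. Zfp697, on the opposite strand, overlaps Hsd3b3 exons by 281 bases and Hsd3b2 exons by 99 bases, and was at 1.69, 1.1 and 1.69 TPM in the labelled KO and 0.44, 0.28 and 0.35 TPM in the controls. The sources used here do not say whether counting used strand.

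The remaining Hsd3b genes of the cluster were near 0. Hsd3b4, Hsd3b6 and Hsd3b1, whose products act in kidney, skin and steroid-making glands, stayed at or under 0.13 TPM in the 6 libraries and were not tested. Hsd3b7, a related gene on chromosome 7 that acts in bile acid synthesis and not on hormones, was at 107, 115 and 129 TPM in the labelled VMP1 KO libraries and 288, 249 and 256 TPM in the controls. It fell by 1.17 ± 0.11 on the log2 scale (adjusted p = 6.8e-06). The sterol synthesis gene Nsdhl was not called (0.17 ± 0.17, adjusted p = 0.37) and was called lower after centring (-0.75, adjusted p = 0.0025). Phgdh, a serine synthesis gene near the cluster, was at 2.28, 1.75 and 1.69 TPM in the labelled KO and at most 0.12 TPM in the controls.

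**Figure D3:**
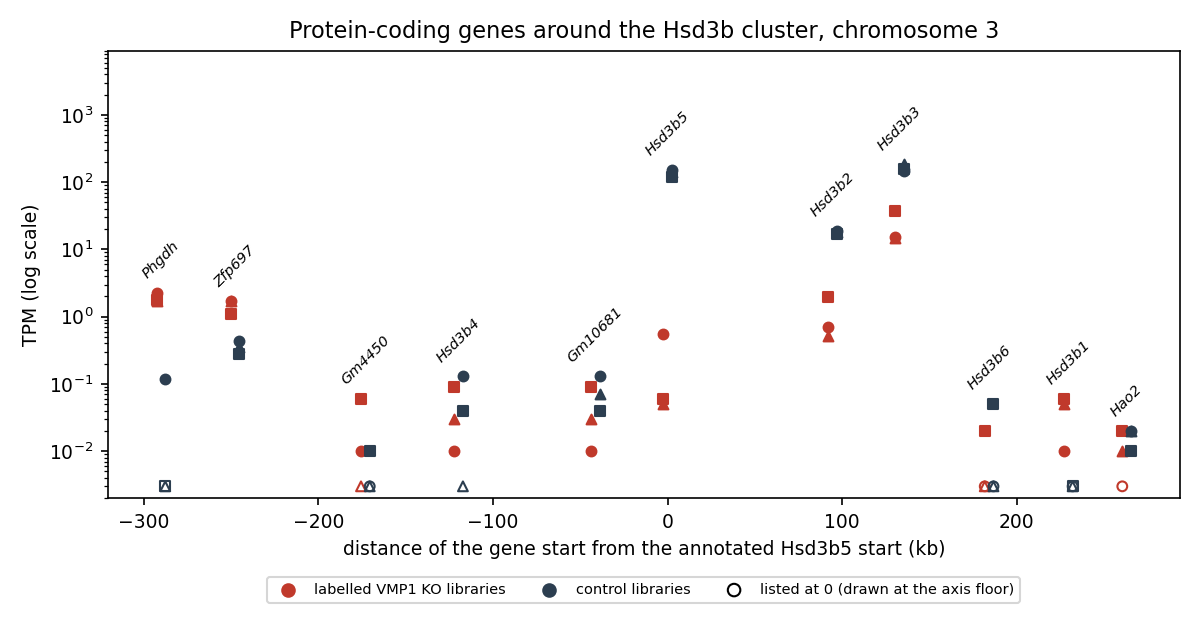
TPM (log axis) of protein-coding genes around the Hsd3b cluster against the distance of each gene start from the annotated Hsd3b5 start in kb, labelled VMP1 KO in red and control in dark blue, marker shape giving the replicate. Hsd3b5, Hsd3b2 and Hsd3b3 are lower in the labelled KO libraries, Phgdh and Zfp697 are higher, and Hsd3b4, Hsd3b6 and Hsd3b1 stay at or under 0.13 TPM; open symbols at the axis floor are values listed at 0.

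Hsd11b1, which regenerates active glucocorticoid inside hepatocytes, was the most abundant of the 7 genes in the controls. Hsd11b1 (ENSMUSG00000016194, chr1:193221634-193264075, minus strand) was at 113, 116 and 102 TPM in the labelled VMP1 KO libraries and at 296, 312 and 276 TPM in the controls. The libraries of each group lay close together and the groups were well apart. The log2 fold change was -1.41 ± 0.10 with adjusted p = 1.3e-06, and -2.35 after centring. H6pd, whose enzyme supplies the NADPH that HSD11B1 needs, was at 118, 84.4 and 105 TPM in the labelled KO libraries and 117, 119 and 119 TPM in the controls. It was not called as deposited (-0.22 ± 0.13, adjusted p = 0.12) and was lower after centring (-1.16, adjusted p = 4.7e-05). The ratio of Hsd11b1 to H6pd was 0.959 to 1.38 in the labelled KO libraries and 2.31 to 2.62 in the controls, lower in 3 of 3 (exact permutation p = 0.1, 0.117 adjusted over the 7 ratios). Hsd11b2, which runs the reverse reaction in kidney, was at or under 0.05 TPM in all libraries. No 50-base word of Hsd11b1 was shared with another gene.

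Srd5a1 encodes the steroid alpha-reductase of type one, which reduces testosterone, progesterone and glucocorticoids. Srd5a1 (ENSMUSG00000021594, chr13:69573449-69611442, minus strand) was at 6.81, 14.2 and 6.19 TPM in the labelled VMP1 KO libraries and at 39.6, 45.3 and 44.0 TPM in the controls. Labelled KO replicate 2 was the highest of its group, below all controls. The log2 fold change was -2.21 ± 0.28 with adjusted p = 3.0e-04, and -3.08 after centring. The isozyme gene Srd5a2 was at 0.78, 1.5 and 0.67 TPM in the labelled KO and 1.22, 1.29 and 1.14 TPM in the controls, and was not called (adjusted p = 0.27; lower after centring, adjusted p = 0.0040). Srd5a3, of the same family but acting on polyprenol in protein glycosylation, rose to 24.6 ± 2.84 TPM in the labelled KO, against 7.34 ± 1.68 TPM in the controls (log2 fold change 1.63 ± 0.16, adjusted p = 8.0e-06; 0.76 after centring). Akr1d1, the beta-reductase that works on the same bond as SRD5A1, was at 26.3 ± 5.45 TPM in the labelled KO and 22.7 ± 4.77 TPM in the controls and was not called (adjusted p = 0.31; lower after centring, adjusted p = 0.012). The ratio of Srd5a1 to Akr1d1 was 0.251 to 0.439 in the labelled KO libraries and 1.62 to 2.12 in the controls, and that of Srd5a1 to Srd5a2 was 8.73 to 9.49 in the labelled KO and 32.5 to 38.6 in the controls. Both were lower in 3 of 3 labelled KO libraries (exact permutation p = 0.1, 0.117 adjusted over the 7 ratios). A transcript annotated on the same strand, Gm17108, shares 476 exon bases with Srd5a1 and stayed at or under 0.05 TPM.

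Hsd17b2 encodes an oxidase that inactivates estradiol and testosterone, and its fall was the smallest of the 6. Hsd17b2 (ENSMUSG00000031844, chr8:117701904-117759027, plus strand) was at 101, 83.3 and 91.8 TPM in the labelled VMP1 KO libraries and at 173, 149.9 and 137 TPM in the controls. The highest labelled KO library stayed below the lowest control. The log2 fold change was -0.73 ± 0.12 with adjusted p = 2.7e-04, and -1.67 after centring.

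Hsd17b6, a relative of the retinol dehydrogenases known in human and rat to oxidize androstanediol, was the exception. Hsd17b6 (ENSMUSG00000025396, chr10:127990936-128007611, minus strand) was at 109, 145 and 76.1 TPM in the labelled VMP1 KO libraries and at 57.8, 148 and 163 TPM in the controls. The groups overlapped, and control replicate 1 was the lowest of all 6 libraries. The log2 fold change was -0.07 ± 0.48 with adjusted p = 0.9, and -1.0 (adjusted p = 0.089) after centring. Without control replicate 1 it was -0.54 (adjusted p = 0.096), so neither a fall nor an unchanged level was shown. The coefficient of variation of Hsd17b6 was 31.4% in the labelled KO and 46.3% in the controls. For the other 6 genes it ran between 6.98% and 131% in the labelled KO, where 4 of them exceeded Hsd17b6, and between 5.34% and 12.1% in the controls. Of its 50-base words 12.1% also occurred in Rdh1, a retinol dehydrogenase gene. The ratio of Hsd17b2 to Hsd17b6 ran from 0.573 to 1.21 in the labelled KO libraries and from 0.839 to 3.0 in the controls and overlapped (exact permutation p = 0.5, also after adjustment).

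The order of abundance was different in the groups. By mean TPM, the labelled VMP1 KO livers had Hsd11b1 at 110.3, Hsd17b6 at 110.2, Hsd17b2 at 92.0, Hsd3b3 at 22.4, Srd5a1 at 9.08, Hsd3b2 at 1.07 and Hsd3b5 at 0.223. Among these, the ranges of Hsd17b6 overlapped those of Hsd11b1 and Hsd17b2, and the values of Hsd3b2 and Hsd3b5 overlapped as well. In the control livers Hsd11b1 led at 295 with all 3 libraries above those of the next gene. Then came Hsd3b3 at 163, Hsd17b2 at 153, Hsd3b5 at 139 and Hsd17b6 at 123, and neighbours among these 4 overlapped. Srd5a1 at 43.0 and Hsd3b2 at 17.8 were lower and apart. Hsd3b5 was thus among the abundant genes in the controls and last in the labelled KO livers.

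Labelled KO replicate 2 was less far from the controls than the other labelled KO libraries in Hsd3b2, Hsd3b3 and Srd5a1. By a small margin it was also the highest of its group in Hsd11b1, at 116 TPM against 113 and 102 TPM. It was the highest labelled KO library in 58.7% of the 1369 genes called lower and the lowest in 60.3% of the 9537 called higher. Without it the log2 fold changes were -3.55 for Hsd3b2, -3.36 for Hsd3b3, -2.55 for Srd5a1 and -1.45 for Hsd11b1. In Hsd3b5 and Hsd17b2 replicate 1 was the highest of the labelled KO libraries.

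Other enzymes of steroid metabolism moved both ways. Outside the 7 genes, 46 enzyme genes of 4 lists were in the table and 33 were tested; 10 rose, 13 fell and 10 were not called. After centring 4 were higher and 23 lower. Their median log2 fold change was -0.09 before centring and -1.0 after it. Among all tested genes 74.5% were higher and 10.7% lower as deposited, and 35.1% were higher and 36.6% lower after centring. Among oxidoreductases, Akr1c6, which reduces keto groups of sex steroids, fell to 286 ± 56 TPM in the labelled VMP1 KO, against 762 ± 73.9 TPM in the controls (log2 fold change -1.42 ± 0.16). Akr1c14, an alpha-hydroxysteroid dehydrogenase gene, fell to 23.3 ± 6.13 TPM in the labelled KO, against 94.2 ± 12.8 TPM in the controls (-2.0 ± 0.19). Hsd17b4, a peroxisomal enzyme gene of beta-oxidation, changed by -0.73 ± 0.10. Hsd17b13, a lipid droplet protein gene, had a log2 fold change of 0.95 ± 0.15 (adjusted p = 2.6e-04), and after centring one of 0.01, not called. Dhrs11 was higher by 0.61 as deposited and lower (-0.29) after centring.

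Genes of steroid hydroxylation and sulfation included the widest changes. Sulfotransferase gene Sult2a8 was at 2.11, 0.6 and 0.73 TPM in the labelled VMP1 KO libraries and at 360, 359 and 362 TPM in the controls (log2 fold change -7.46 ± 0.24, adjusted p = 1.9e-07). Cyp7b1, an oxysterol and androgen hydroxylase gene, was at 16.6, 18.3 and 13.3 TPM in the labelled KO and 231, 102 and 254 TPM in the controls (-3.43 ± 0.37, adjusted p = 2.5e-04). Sult1e1, whose product inactivates estrogen by sulfation, was at 24.7, 11.5 and 18.8 TPM in the labelled KO and at or under 0.08 TPM in the controls (4.14 ± 0.24, adjusted p = 1.7e-06). Groups were apart for these 3 genes. Cyp21a1, the steroid hydroxylase gene of the adrenal cortex, was at 26.2, 12.5 and 17.7 TPM in the labelled KO and 0.59, 1.24 and 1.16 TPM in the controls (3.27 ± 0.27, adjusted p = 1.8e-05). Of 10 adrenal and gonadal markers, which include Cyp21a1, 2 were tested and both were higher, the other being the gonadal hormone gene Insl3 at 4.09, 3.29 and 2.81 TPM in the labelled KO and 0.82, 1.43 and 0.74 TPM in the controls. Cyp21a1 and Insl3 passed the filter only through the labelled KO libraries, so it largely set their direction. Over all tested genes 74.5% were higher as deposited and 35.1% after centring. The other 8 markers stayed under 1 TPM. Among these, Star, for cholesterol import, was at 0.77, 0.61 and 0.56 TPM in the labelled KO and 0.52, 0.45 and 0.3 TPM in the controls, while Cyp11a1, Cyp11b1 and Mc2r were listed at 0 in all 6 libraries. The 10 markers summed to 16.5 to 31.2 TPM in the labelled KO and 1.93 to 3.12 TPM in the controls, and their part in the result was not tested. The directions of Sult2a8, Cyp7b1, Sult1e1 and Cyp21a1 were the same before and after centring.

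**Figure D4:**
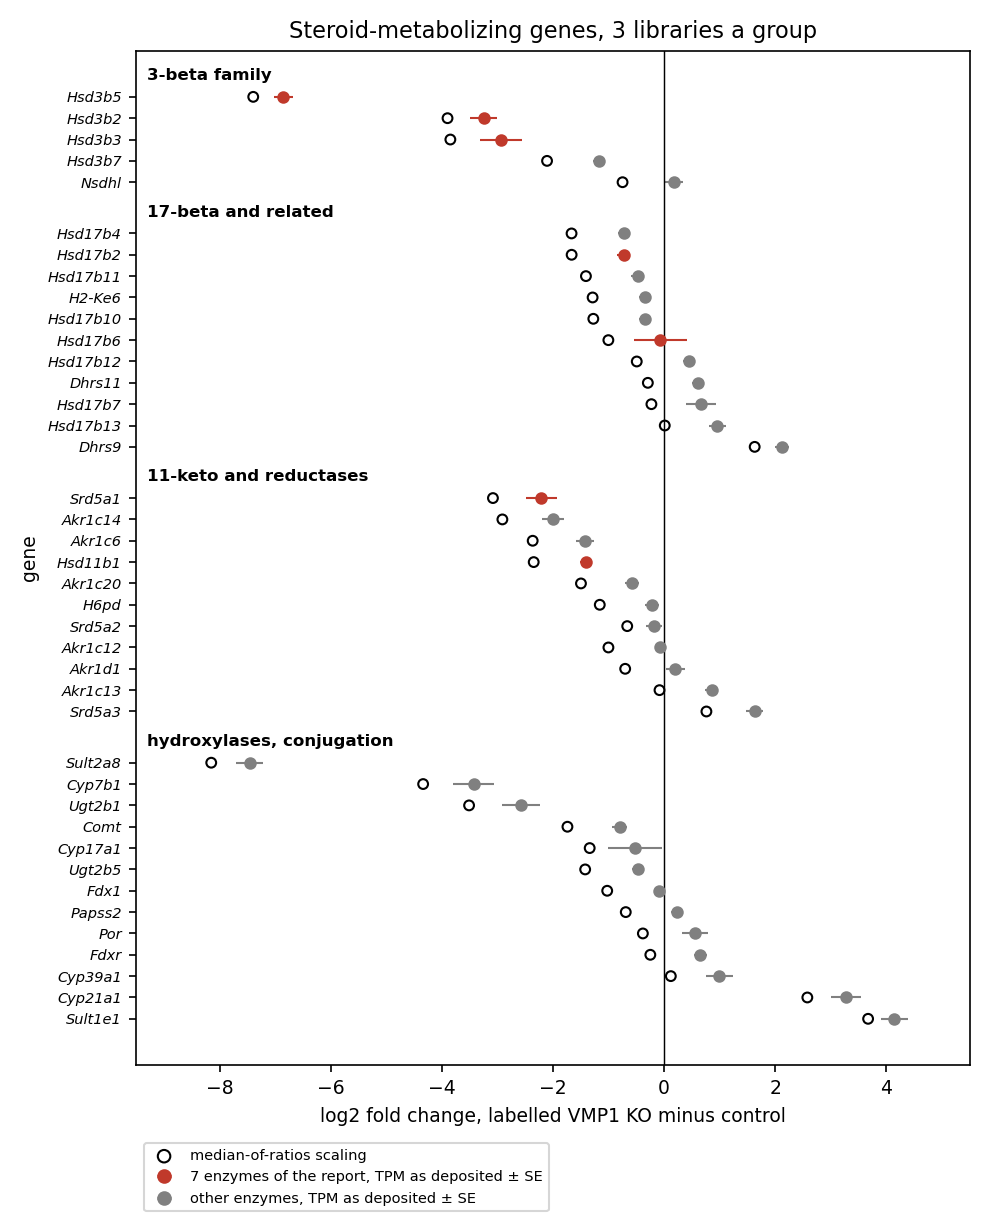
Log2 fold change, labelled VMP1 KO minus control, of each tested steroid-metabolizing gene, with filled points ± SE for TPM as deposited (red for the 7 enzyme genes) and open points after centring by median-of-ratios scaling. Red points run from -6.86 (Hsd3b5) to -0.07 (Hsd17b6), and Sult1e1, Cyp21a1, Srd5a3 and Dhrs9 are among the genes above 0 before and after centring.

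Receptors and plasma carriers of steroids changed in few cases as deposited. As a background, 74.5% of all tested genes were higher and 10.7% lower as deposited, and 35.1% were higher and 36.6% lower after centring. Of 7 receptor and carrier genes tested, 1 rose, 1 fell and 5 were not called, and 0 were higher and 6 lower after centring. Without control replicate 2 the number higher was 2, and without control replicate 1 or labelled KO replicate 2 the number lower was 2. The glucocorticoid receptor gene Nr3c1 was at 9.93 ± 0.593 TPM in the labelled VMP1 KO and 8.83 ± 0.422 TPM in the controls (0.15 ± 0.10, adjusted p = 0.16). Nr1i3, the nuclear receptor CAR, fell to 16.2 ± 4.61 TPM in the labelled KO, against 156 ± 31.7 TPM in the controls (-3.21 ± 0.23, adjusted p = 5.8e-06). Pgrmc1 was higher by 0.84 before centring and was not called after centring (-0.11, adjusted p = 0.31).

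Among 20 genes that glucocorticoid is known to control, 2 rose, 11 fell and 7 were not called. After centring 2 were higher and 13 lower, and without control replicate 2 the number higher was 4. The gluconeogenesis genes G6pc and Pck1 fell by 5.04 ± 0.57 and 3.66 ± 0.59 on the log2 scale (adjusted p = 5.7e-04 and 0.0023). Sgk1, a kinase gene, rose by 3.25 ± 0.34 and Igfbp1, a growth factor binding protein gene, rose by 2.64 ± 0.40. The median log2 fold change of the 20 genes was -0.71, against 0.77 over all tested genes. Of all tested genes 74.5% were higher and 10.7% lower as deposited, and 35.1% were higher and 36.6% lower after centring. Many of the 20 genes are also hepatocyte genes, and 9 of 12 hepatocyte markers were lower in these libraries. Tat and Cps1 are on both lists.

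Because Hsd3b5 is a male-biased gene, the sex-linked transcripts were read in each library. Xist, transcribed in female cells, was at or under 0.04 TPM in all 6 libraries. The Y-linked transcripts Ddx3y, at 14.9, 11.9 and 13.8 TPM in the labelled VMP1 KO libraries and 10.7, 10.1 and 10.6 TPM in the controls, and Eif2s3y, at 39.0, 34.6 and 38.9 TPM in the labelled KO and 24.2, 27.9 and 28.0 TPM in the controls, were present in every library. Kdm5d and Uty were between 2.88 and 4.24 TPM throughout. The called Y-linked genes Ddx3y, Eif2s3y and Uty were higher before centring and lower after it, and without labelled KO replicate 1 only 1 was called higher.

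Other male-biased liver genes fell alongside Hsd3b5. Of 23 tested on the list, which includes Hsd3b5 and Cyp7b1, 19 fell, 1 rose and 3 were not called, with a median log2 fold change of -2.92. Over all tested genes 10.7% were lower as deposited and 36.6% after centring. On this list, chosen with earlier results of these data known, 22 were lower and 0 higher after centring. Besides Hsd3b5, the largest changes were those of the protease inhibitor gene Serpina1e (-6.94 ± 0.41), the organic anion transporter gene Slco1a1 (-6.33 ± 0.12) and the fatty acid elongase gene Elovl3 (-6.28 ± 0.23). Serpina1e has near-identical paralogs, so its single value is uncertain. The share of all tested genes called higher was 74.5% as deposited and 35.1% after centring. Of 24 female-biased genes 10 were tested, and 5 rose, 2 fell and 3 were not called, with 4 higher and 4 lower after centring. Without any 1 of the labelled KO libraries 7 were tested and 2 were higher, and without control replicate 1 or 2 there was 1 lower. Of the genes that rose, Sult1e1, Atp6v0d2, Prom1 and Cyp2a4 passed the filter only through the labelled KO libraries. Cyp2c69, which fell, passed only through the controls. The filter therefore largely set the direction of these genes. Cyp2a4, a steroid hydroxylase gene with a near-identical neighbour, rose by 9.94 ± 0.14 on the log2 scale, Sult1e1 rose as given above, and Atp6v0d2, a proton pump subunit gene, rose by 2.6 ± 0.27. Cyp4a14, a fatty acid hydroxylase gene on that list, fell by 2.85 ± 0.59. Of the 14 female-biased genes not tested, 12 stayed under 1 TPM in every library.

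**Figure D5:**
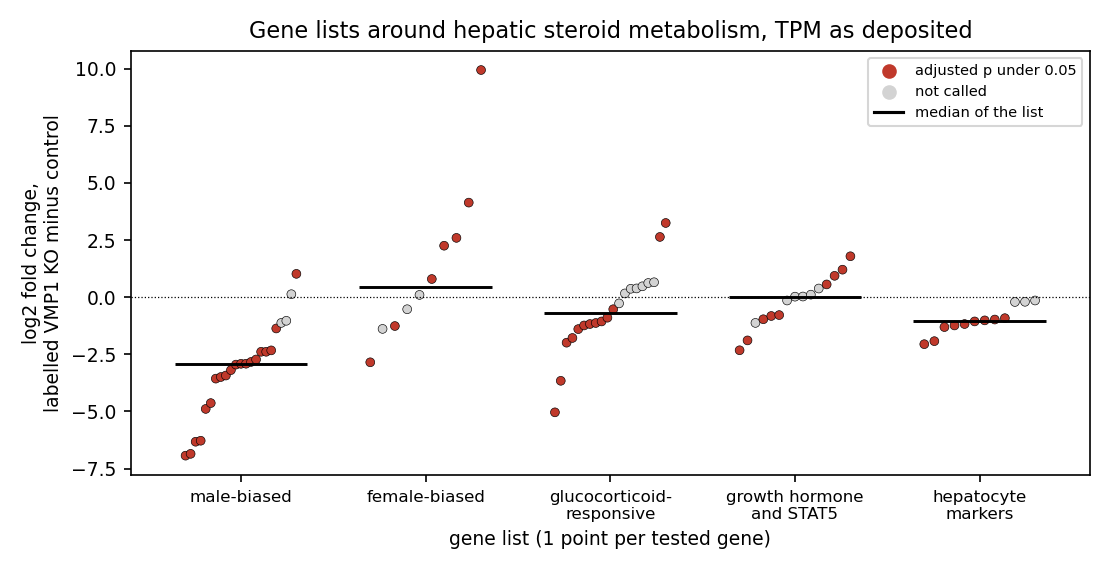
Log2 fold change (labelled VMP1 KO minus control, TPM as deposited) of each tested gene in 5 lists, red where adjusted p was under 0.05 and grey where not called, with a black line at the list median. The male-biased list has its median at -2.92, and female-biased genes lie on both sides of 0.

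Growth hormone signalling genes moved in both directions. Of 15 tested, 4 rose, 5 fell and 6 were not called, and 2 were higher and 10 lower after centring. The shares over all tested genes were 74.5% higher and 10.7% lower as deposited, and 35.1% higher and 36.6% lower after centring. The receptor gene Ghr fell to 38.6 ± 3.32 TPM in the labelled VMP1 KO, against 197 ± 5.48 TPM in the controls (-2.32 ± 0.10, adjusted p = 6.0e-08). Igfals, which encodes a carrier subunit for IGF1, fell by 1.89 ± 0.11. Cish, a feedback inhibitor gene of the pathway, rose by 1.79 ± 0.24 and the kinase gene Jak2 rose by 1.20 ± 0.11, and both remained higher after centring (1.06 and 0.43). The transcription factor genes Stat5b and Hnf4a were not called as deposited and were lower after centring.

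Genes whose levels over the 6 libraries were most like those of the 7 were found by Euclidean distance of log2(TPM + 1), each gene centred on its control mean. Hsd3b3 lay nearest to the complement gene C8b at a distance of 0.29, Hsd3b2 to the glycosyltransferase gene Ugt3a2 at 0.124, and Srd5a1 to the plasma protein gene Vtn at 0.222. Hsd11b1 lay nearest to Tfr2, an iron sensor gene, at 0.132, and Hsd17b2 to Akap1, an anchoring protein gene, at 0.161. Hsd3b5 had no gene so near, with Mup10, one of a family of near-identical genes, at 0.911 and Slco1a1 at 1.06. Hsd17b6 lay 0.742 from its nearest gene, Gm4956. These distances are descriptions over 6 libraries.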

How the data were processed

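Total RNA from snap-frozen liver was extracted with Trizol and sequenced, per the labels' protocols. The authors deposited 1 table of TPM values with 1 column per library; per the submitters' processing notes, the tools were STAR (2.6.1c), RSEM and edgeR and the build was mm10, with no role stated. RSEM estimates the origin of ambiguous reads, which limits single values of near-identical genes. Columns were matched to sample titles, and 0 were left unmapped. Of 55536 identifiers, 55450 matched GENCODE M21 (GRCm38). The 12796 genes that reached 1 TPM in 3 or more libraries were fitted as log2(TPM + 1) with limma 3.58.1 in R 4.3.3, trend and robust variances, no replicate block, and Benjamini-Hochberg adjustment at 0.05. The 7 genes and all lists were chosen with earlier results of these data known. Named list genes were up to 4 called per list with the largest change and a mean of at least 5 TPM in 1 group, plus every Hsd3b family gene (Nsdhl included), H6pd and every sex-chromosome transcript whatever its result. Dhrs9, Stat5b, Hnf4a, Nr3c1, Akr1d1, Srd5a2, Hsd11b2, Prom1, Cyp2c69, the adrenal and gonadal markers and the cluster neighbours were chosen after their values were seen. Of list symbols, Sts was not matched. Likeness used genes with a mean of at least 5 TPM. Sequences came from RefSeq, and words and coding sequences from GENCODE; the procedure was tested on simulated data. Alternatives changed the pseudocount, filter, scaling, variance model, threshold and block, and left out each library. The filter for leaving out libraries was also relaxed, and mean shares were taken without each labelled KO library, both chosen after seeing the data. Figures used matplotlib 3.10.9. Some items are not reported here.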

Additional observations from a re-analysis of the deposited data

How the results depend on the processing

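Hsd3b2, Hsd3b3, Hsd3b5, Hsd11b1, Hsd17b2 and Srd5a1 kept their direction and their call under every alternative that could be run. Leaving out 1 library, the log2 fold change ran from -3.55 to -3.06 for Hsd3b2, -3.36 to -2.71 for Hsd3b3, -1.46 to -1.35 for Hsd11b1, -0.81 to -0.64 for Hsd17b2 and -2.55 to -2.01 for Srd5a1. Hsd3b5 could not be tested without a control library, since only 2 libraries then reached 1 TPM; it ran from -7.05 to -6.76 without a labelled KO library and, with the filter relaxed to 2 libraries, over the same range, the largest adjusted p being 1.5e-06. With a pseudocount of 0.1 it was -9.11. Hsd17b6 ran from -0.54 to 0.20, turning positive without control replicate 2 (0.13) or 3 (0.20) or labelled KO replicate 3 (0.17), and was called under no alternative; the relaxed filter gave the same fold changes. The genes called higher and lower were 4496 and 4689 with median-of-ratios scaling and 4520 and 4534 with quantile normalization, against 9537 and 1369 as deposited, both scalings equalizing the middle of the libraries. Leaving out 1 library gave 7585 to 9599 higher and 1135 to 1341 lower, the numbers tested also changing. Deviations of same-numbered libraries correlated at 0.0762, 0.0397 and -0.115. Labelled KO replicates 1 and 2 correlated best with the control of their own number, and labelled KO replicate 3 with control replicate 2. With so few libraries these small values cannot decide whether the replicate numbers pair the libraries. With a replicate block 9427 genes were higher and 1333 lower, and the 6 lower enzyme genes stayed called (Hsd3b3, adjusted p = 0.0020). Depth is unknown in TPM, so the counting error of the Hsd3b5 levels under 0.6 TPM in the labelled KO is unknown.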
